A study of Rattus norvegicus with 2 samples.

Results

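Granins and the enzymes that cut neuropeptide precursors were examined in sympathetic neurons of the rat stellate ganglion. The ganglion holds neurons that innervate the heart and neurons with other targets, and the values here do not separate them. The 10 genes were chosen by symbol: 6 of the granin family (Chga, Chgb, Scg2, Scg3, Scg5 and Vgf) and 4 that encode processing enzymes (Pcsk1, Pcsk2, Cpe and Pam). All 10 had a value in both libraries, out of 25399 genes listed in each. Ganglia were dissociated with collagenase IV and trypsin and single cells were sequenced in droplets (10x Genomics, 3′ chemistry). There was 1 library from normotensive Wistar rats and 1 from prehypertensive SHRs (spontaneously hypertensive rats). Animals of both strains were male and 5 to 6 weeks of age and the number of animals per library is not given in the sources used here.

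Granins are acidic proteins that gather in the trans-Golgi network and help to form dense-core vesicles, the organelles in which neurons and chromaffin cells keep peptides and catecholamines together. Inside the maturing vesicle, the prohormone convertases encoded by Pcsk1 and Pcsk2 cut precursors at pairs of basic residues, carboxypeptidase E (Cpe) trims the exposed residues, and peptidylglycine alpha-amidating monooxygenase (Pam) amidates the new end. Granins are themselves substrates of these enzymes, and sympathetic neurons release the products with noradrenaline and with cotransmitters such as neuropeptide Y.

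Each value was a mean over the neurons of 1 library, so the strains could be described side by side but not tested, and no spread between libraries existed. A lower mean can come from fewer neurons with the transcript or from less of it per neuron, and these cannot be told apart in a mean. The study describes sympathetic neurons with and without Npy as separate populations. Their shares in each mean are not given in the sources used here. Levels are mean counts per 10000 counts of a cell, and strain differences are of log2(1 + mean), SHR minus Wistar, where the added 1 shrinks the difference of low genes. The 3′ chemistry tags 1 end of each transcript, so levels were not divided by transcript length. The cluster carried the sympathetic markers, with Th at 10.2 per 10000 in Wistar and 10.1 in SHR, Slc6a2 at 15.9 and 15.2, and Dbh at 10.2 and 6.36. The 10 neuronal markers examined were above 0 in both libraries, and 5 of them were lower in SHR. Markers of other cells were also present and moved with the strain. All 8 satellite glia and Schwann cell markers were lower in SHR, beside 68.1% of all genes with no minimum level. The 5 of them with an average of at least 0.1 per 10000 were lower, beside 65.6% of all genes at that level. Their sum over the 8 went from 8.38 to 2.84 per 10000, most of it Apoe (6.24 in Wistar and 2.23 in SHR). The sum of 6 fibroblast markers went from 1.84 to 0.353 and that of 7 immune markers from 1.24 to 0.426. Their part in the results below was not tested.

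The promoter sequences of 8 of the 10 genes could be matched by symbol in RefSeq (rat assembly GRCr8), in windows of 250 bases before to 50 bases after the start. Those of Chga and Pcsk1 were not searched here. They are shown because several granin genes, Vgf among them, are known from other cells to carry a cAMP response element. The full element, TGACGTCA, which reads the same on both strands, was found in Scg2 and Vgf and in 1.83% of all 33469 promoter windows. Its core TGACG, searched on both strands and contained in the full element, was found in 7 of the 8 windows, Chgb being the exception, and in 21.2% of all windows. The GC box GGGCGG was found on either strand in 6 of 8 windows and in 33.1% of all, with 7 matches in Pcsk2, some of them overlapping, and TATAAA in Vgf and in 14.2% of all. The share of G and C in the 8 windows ran from 50% (Scg2) to 73.3% (Pcsk2), beside a median of 51.7% over all windows. The part of base content in these counts was not tested. The 150 bases before the start are given below, 5′ to 3′ on the strand of the gene, with the full element or, where it is absent, its core in capitals (CGTCA is the core on the opposite strand), for both genes with the full element and for the enzymes Pam and Pcsk2. These matches are descriptions of sequence and not of binding.
Scg2 (GRCr8 chr9:88256867-88257016, minus strand): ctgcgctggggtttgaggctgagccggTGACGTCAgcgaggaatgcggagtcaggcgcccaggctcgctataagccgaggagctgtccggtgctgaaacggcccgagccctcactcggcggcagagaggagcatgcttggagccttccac
Vgf (GRCr8 chr12:25277021-25277170, minus strand): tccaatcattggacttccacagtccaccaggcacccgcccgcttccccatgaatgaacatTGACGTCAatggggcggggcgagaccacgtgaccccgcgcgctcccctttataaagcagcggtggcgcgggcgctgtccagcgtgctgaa
Pam (GRCr8 chr9:105570218-105570367, plus strand): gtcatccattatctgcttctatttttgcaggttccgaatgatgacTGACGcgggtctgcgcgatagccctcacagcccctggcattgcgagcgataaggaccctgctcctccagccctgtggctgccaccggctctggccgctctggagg
Pcsk2 (GRCr8 chr3:151333788-151333937, plus strand): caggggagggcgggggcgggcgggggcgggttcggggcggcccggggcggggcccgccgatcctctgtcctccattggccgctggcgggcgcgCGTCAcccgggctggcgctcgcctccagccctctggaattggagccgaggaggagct

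The 10 genes were lower in SHR neurons in 9 cases, and Pcsk2 was the exception. For Cpe the direction rests on the scaling: it was slightly lower in SHR on the total of all genes, and higher once transcripts of mitochondria and ribosomal proteins were left out of it (log2 difference 0.0058) or with the median difference of all genes set to 0 (0.026). Among all 7621 genes with an average of at least 0.1 per 10000, 65.6% were lower in SHR and 34.4% higher, with a median log2 difference of -0.05, against -0.14 for the 10 genes. With the median of all genes set to 0, which by construction puts as many genes below as above it, 8 of the 10 were lower. Of the 1676 genes with an average of at least 1 per 10000, 45.5% were lower in SHR and the median log2 difference was 0.04, whereas all 7 of the 10 genes at that level (Chga, Chgb, Scg2, Scg3, Scg5, Cpe and Pam) were lower, with a median of -0.22. By a fixed size of 0.32 in log2 difference, 2 of the 10 genes were lower, Chga and Pam, and 0 were higher, while 6.99% of the 7621 genes were lower and 4.37% higher by that size. The added 1 makes that size hard to reach for low genes. Among the 1676 genes with an average of at least 1 per 10000, 234 were lower and 311 higher by that size. Of the 7 genes of the group at that level, 2 were lower and 0 higher. These counts come from 2 libraries and carry no test.

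**Figure D1:**
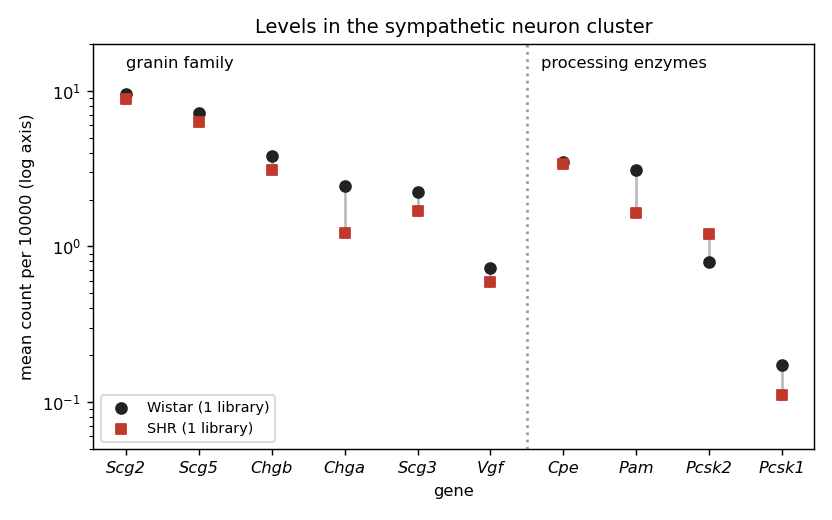
Mean count per 10000 (log axis) of each gene in the sympathetic neuron cluster of the Wistar library (black circles) and the SHR library (red squares), with the granin family on the left and the processing enzymes on the right. Scg2 is highest and Pcsk1 lowest in both libraries, the gap between the strains is widest for Chga and Pam, and Pcsk2 is the gene whose SHR point lies above its Wistar point.

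Summed over the granin family, the level was 25.9 counts per 10000 in Wistar neurons against 21.8 in SHR neurons, that is 0.259% and 0.218% of all counts. Scg2, which encodes secretogranin II, the precursor of secretoneurin, was the most abundant, at 9.49 counts per 10000 in Wistar neurons against 8.89 in SHR neurons. It ranked 99 and 121 among all genes and had a log2 difference of -0.09. Scg2 thus made up 36.7% of the granin sum in Wistar and 40.8% in SHR.

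Scg5 encodes the secretory chaperone that binds the Pcsk2 convertase and keeps it from acting too early. Wistar neurons held 7.20 and SHR neurons 6.28 counts per 10000, a log2 difference of -0.17. Chgb, encoding chromogranin B, came next, with 3.78 in Wistar neurons against 3.10 in SHR neurons and a log2 difference of -0.22. In both libraries these genes were far above Vgf, the lowest of the family.

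Chga, encoding chromogranin A, the precursor of catestatin and vasostatin, showed the widest gap of the family. Wistar neurons had 2.44 counts per 10000 against 1.22 in SHR neurons, so the SHR level was 0.499 of the Wistar level and the log2 difference was -0.63. Counted from the lowest difference, Chga stood at place 73 of 7621 genes, and at place 58 of the 1676 genes with an average of at least 1. Its rank by level went from 614 among all genes in Wistar to 1319 in SHR, and its part of the granin sum from 9.42% to 5.59%. Over the 6 scalings of the libraries its log2 difference lay between -0.68 and -0.58. Without Chga, the other 5 granin genes summed to 23.4 per 10000 in Wistar and 20.6 in SHR.

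Scg3, whose product secretogranin III links other granins to the vesicle membrane, stood at 2.25 counts per 10000 in the Wistar library against 1.69 in the SHR library, with a log2 difference of -0.27. In Wistar it lay just under Chga, with a ratio of Scg3 to Chga of 0.921, whereas in SHR it lay above Chga, with a ratio of 1.39. Vgf, the nerve growth factor-inducible member of the family, stood at 0.723 in the Wistar library against 0.594 in the SHR library, with a log2 difference of -0.11. The SHR level of Vgf was 0.822 of the Wistar level, close to the 0.819 of Chgb.

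Of the processing enzymes, 3 were lower in SHR and 1 was higher, beside 65.6% and 34.4% of all genes. The 3 include Cpe, whose direction rests on the scaling. Pam, the only member of the group that amidates peptides, stood at 3.09 counts per 10000 in Wistar neurons against 1.65 in SHR neurons, a ratio of 0.533 and a log2 difference of -0.63. It stood at place 76 of 7621 genes from the lowest difference, and at place 60 of the 1676 genes with an average of at least 1. Over the 6 scalings its log2 difference lay between -0.66 and -0.58. Cpe, at 3.48 in Wistar and 3.40 in SHR, had nearly the same level in both libraries, with an SHR level of 0.977 of the Wistar level.

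Of the convertases, Pcsk2 was higher in SHR and Pcsk1 was lower. Pcsk2 stood at 0.799 counts per 10000 in Wistar neurons against 1.20 in SHR neurons, a log2 difference of 0.29, and only 408 of the 7621 genes had a higher difference. It was the single gene of the 10 that was higher under each of the 6 scalings, with log2 differences between 0.29 and 0.34. This is just under the size of 0.32 on the total of all genes, and past it under 3 of the other scalings. Pcsk1 had the lowest level of the 10, 0.173 in Wistar neurons against 0.110 in SHR neurons, a ratio of 0.639. Its log2 difference of -0.08 was small because of the added 1, and it became -0.60 with 0.01 added in place of 1. The median of all 7621 genes went from -0.05 to -0.21 with the same change.

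**Figure D2:**
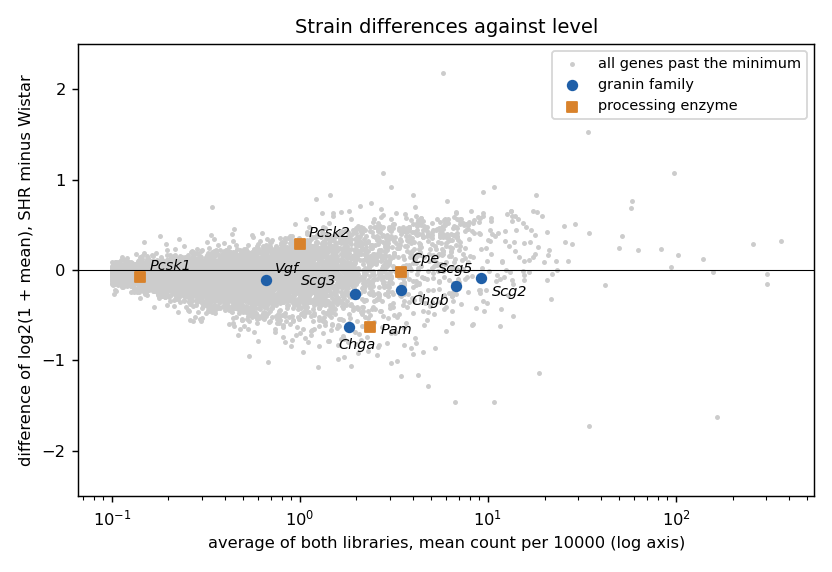
Difference of log2(1 + mean), SHR minus Wistar, against the average of both libraries in mean counts per 10000 (log axis), for the 7621 genes past the minimum (grey), the granin family (blue circles) and the processing enzymes (orange squares). Chga and Pam lie in the lower part of the cloud, at -0.63 each, Pcsk2 lies in its upper part at 0.29, and Cpe and Scg2 lie close to 0.

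The order of the levels was similar in the libraries. In Wistar it ran Scg2, Scg5, Chgb, Cpe, Pam, Chga, Scg3, Pcsk2, Vgf and Pcsk1, and the highest level was 54.9 times the lowest. In SHR it ran Scg2, Scg5, Cpe, Chgb, Scg3, Pam, Chga, Pcsk2, Vgf and Pcsk1, with a span of 80.5 times. Chga at 1.22 and Pcsk2 at 1.20 per 10000 were next to each other in SHR, and with no spread between libraries it cannot be said whether such neighbours differ. Above 0, the smallest mean of any gene was 0.00014 for Wistar against 0.00039 for SHR. The lowest value of a gene of the group, Pcsk1 in SHR, was 282 times the smallest mean of that library, so none of the 10 sat at the smallest mean. At 0.110 per 10000 it was close to the 0.1 used as the minimum average. How well so low a level was measured cannot be stated, because the depth per neuron is unknown.

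Ratios between genes of the same library do not depend on how the libraries were scaled. There were 4.63 counts of Pcsk2 for each count of Pcsk1 in Wistar neurons and 10.8 in SHR neurons. Pcsk1 is low, and with 0.1 per 10000 added to both genes the ratios became 3.30 and 6.16. The ratio of Scg5, the chaperone, to its partner Pcsk2 was 9.01 in Wistar and 5.26 in SHR. The convertases and the chaperone thus stood in different proportions in the libraries.

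The ratio of Chga to Chgb was 0.644 in Wistar and 0.393 in SHR, and that of Chga to Scg2 was 0.257 and 0.137. The ratio of Pam to Cpe, which act one after the other, was 0.887 in Wistar and 0.484 in SHR. The ratio of Cpe to Scg2, at 0.367 and 0.383, differed little between the libraries. Among the enzymes, Cpe held 46.2% of the sum of the 4 genes in Wistar and 53.5% in SHR, Pam 40.9% and 25.9%, Pcsk2 10.6% and 18.8%, and Pcsk1 2.29% and 1.74%.

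**Figure D3:**
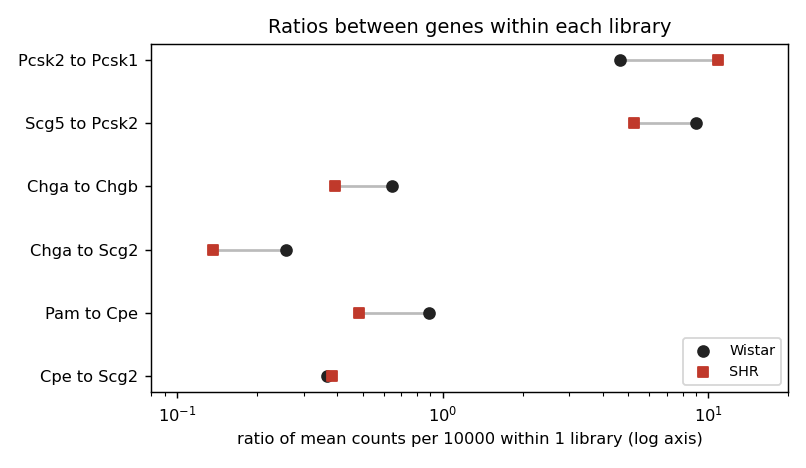
Ratio of the mean counts per 10000 of 2 genes within the Wistar library (black circles) and within the SHR library (red squares), on a log axis. The ratio of Pcsk2 to Pcsk1 is higher in SHR (10.8 against 4.63), the ratios with Chga or Pam on top and that of Scg5 to Pcsk2 are lower in SHR, and the ratio of Cpe to Scg2 is nearly the same.

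Pam needs copper and ascorbate, as does Dbh, the enzyme that makes noradrenaline in the same vesicles. Of 7 genes for copper and ascorbate supply, 5 passed the minimum of 0.1 per 10000. Of these, 2 were lower and 3 higher in SHR, beside 65.6% and 34.4% of all genes. Cyb561, the vesicle membrane cytochrome that returns ascorbate to its reduced form, stood at 14.9 counts per 10000 in Wistar neurons against 18.7 in SHR neurons. Atox1, a copper chaperone, went from 1.91 to 3.04 (log2 difference 0.48), and Slc31a1, the copper importer, from 1.02 to 1.22. Atp7a, which pumps copper into the secretory pathway, was at 1.56 in Wistar and 1.19 in SHR, and the ascorbate transporter gene Slc23a2 at 0.664 and 0.405. The ratio of Pam to Cyb561 was 0.207 in Wistar and 0.0881 in SHR, while the ratio of Pam to Dbh was 0.303 and 0.259.

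Other convertases and peptidases were mostly lower in SHR, at 9 of 12 past the minimum, beside 65.6% of all genes. Their median log2 difference was -0.05, equal to that of all genes at 2 decimals. Ece2, an endothelin-converting enzyme family peptidase, was the only one of them past the size of 0.32, at 1.67 per 10000 in Wistar and 0.865 in SHR. Furin, the convertase of the constitutive pathway, was at 0.939 and 0.710, and the lysosomal protease gene Ctsl at 1.87 and 1.49. Higher in SHR by small amounts were Ctsb (4.35 and 4.50), Ece1 (0.650 and 0.716) and Rnpep (0.365 and 0.381).

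Genes for the formation and release of dense-core vesicles were lower in SHR at 17 of 25 past the minimum, a share near the 65.6% of all genes, with a median log2 difference of -0.08. Of the 25, 3 were lower past the size of 0.32, beside 6.99% of all genes. These were Ptprn, a receptor-type phosphatase family protein of the vesicle membrane (4.59 per 10000 in Wistar and 2.58 in SHR), Slc18a2, the vesicular monoamine transporter (5.36 and 3.63), and Cadps, a priming factor for dense-core vesicles (0.734 and 0.351). Ptprn, with a log2 difference of -0.64, thus differed by about as much as Chga and Pam. Of the most abundant genes of this list, Syt4 was at 16.6 and 16.3 and Syt11 at 5.78 and 5.23. Rab3a (5.08 and 5.85), Rab3d (0.724 and 0.882) and Rnd1 (0.122 and 0.180) were higher in SHR.

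Of 28 neuropeptide precursor genes, 9 passed the minimum, and 6 of these were lower in SHR, a share near the 65.6% of all genes. Npy stood at 2.38 counts per 10000 in Wistar neurons against 1.48 in SHR neurons, below Scg2 and Scg5 but above Pcsk2, Vgf and Pcsk1 in both libraries. Penk, the enkephalin precursor, was at 0.546 and 0.0467, and Edn3 at 0.634 and 0.238. Adm (0.916 and 1.14), Pnoc (0.217 and 0.439) and Pomc (0.1 and 0.119) were higher in SHR.

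Over the 4 lists together, 34 of 51 genes past the minimum were lower in SHR, which is close to the 65.6% of all genes. By the size of 0.32, 7 of the 51 were lower and 1 was higher, beside 6.99% and 4.37% of all genes. Small intensely fluorescent cells and chromaffin cells, which are also rich in granins, were looked for by 5 markers, of which Pnmt, the enzyme that makes adrenaline, was listed at 0.0018 in the Wistar library and at 0 in the SHR library. Drd2 was at 0.506 and 0.202 and Slc18a1 at 0.172 and 0.0888, and the sum of the 5 was 0.776 and 0.324. Their part in the lower Chga was not tested.

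**Figure D4:**
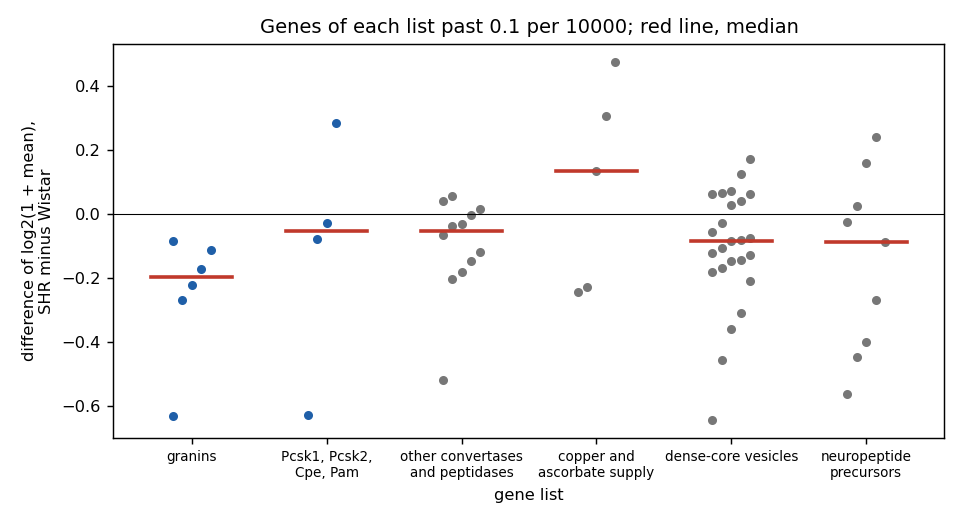
Difference of log2(1 + mean), SHR minus Wistar, of each gene with an average of at least 0.1 per 10000 in the 6 lists, the granins and the 4 enzymes in blue and the other lists in grey, with the median of each list as a red line. The median of the granins is -0.20 and that of the dense-core vesicle list -0.08, and the copper and ascorbate list is the one with a median above 0, at 0.14.

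Gene length moved with the strain difference across the transcriptome. When the 7291 genes with a known span were put into 10 groups by length, 27.1% of the shortest group and 85.6% of the longest were lower in SHR. Pam and Pcsk2 both lie in the longest group, and they differed in opposite directions. Chga lies in the third group, where 56.4% of genes were lower, and Scg2 and Vgf in the second, where 47.2% were. Scg3, Scg5 and Pcsk1 lie in the seventh group (76.1% lower), Cpe in the ninth (83.8%) and Chgb in the fourth (65.0%). The part of length in these differences was not tested.

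**Figure D5:**
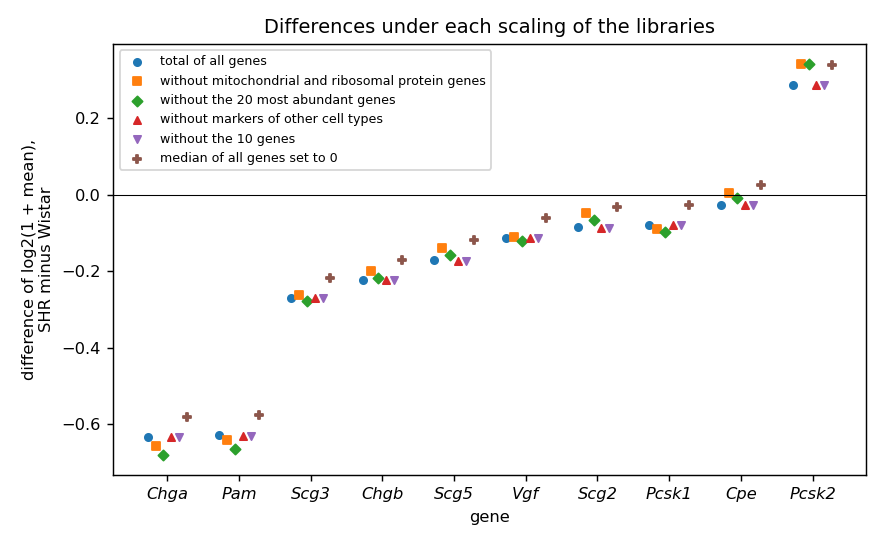
Difference of log2(1 + mean), SHR minus Wistar, of each of the 10 genes under 6 scalings of the libraries, shown by 6 marker shapes. Cpe is the one gene whose points lie on both sides of 0 (-0.026 on the total of all genes, 0.026 with the median of all genes set to 0), and the points of Chga and Pam stay at -0.58 or lower.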

How the data were processed

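The submitters' processing notes name Cell Ranger 3.0.2, Seurat 3 and the genome build Rnor_6.0, and the authors clustered the cells and selected the sympathetic neurons. Filters on cells, doublet treatment and the numbers of neurons are not given in the sources used here. The deposited unit is the natural log: in each library a gene has the ln of its neuronal mean, scaled per 10000 counts and with 1 added. Without the log, the 25399 genes sum to 10000, and 4 lines with repeated names were left out. The depth per neuron is unknown, so no counting interval is given, and barcodes shared by the libraries could not be counted in means. The authors' own comparison of the strains (fold changes, p-values, shares of cells) was not used.

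Means, ratios and differences of log2(1 + mean) were computed with Python 3.11.15, NumPy 2.4.6 and pandas 2.3.3. The arithmetic of the differences was checked on made-up libraries with known changes and no noise. That check does not show how well differences are recovered from real libraries. With 1 library per strain no test was made. A gene was counted by size at a log2 difference of 0.32, at an average of at least 0.1 per 10000. Genes named are the 10 genes, the sympathetic markers Th, Dbh and Slc6a2, and from each pathway list the 3 of highest average, lowest difference and highest difference. Markers of other cells were named at an average of at least 0.1, and Pnmt was named after its values were seen. Of the 7621 genes past the minimum, 95.7% had a span in GRCr8, which was used for ranks only. The genes and lists were chosen with earlier results of these data known. Sums of listed markers went from 0.109 to 0.0358 for endothelial cells (5 genes), 0.110 to 0.0705 for smooth muscle (5) and 0.0669 to 0.0499 for erythrocytes (3).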

Additional observations from a re-analysis of the deposited data

How the results depend on the processing

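No paired analysis was possible because a single library stands for each strain, which is also why no replicate could be left out. Totals were also taken without the 10 genes, the 20 most abundant genes, markers of other cells, or mitochondrial and ribosomal protein genes. These kept 8 or 9 of the 10 genes lower in SHR. Of all genes, 65.6%, 64.8%, 65.6% and 63.3% were lower under these scalings, in the same order. Cpe turned to 0.0058 without mitochondrial and ribosomal protein genes and to 0.026 with the median difference of all genes set to 0, which adds 0.052 to each gene by construction.

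Of the 10 genes, the number lower by 0.32 or more was 2 on the total of all genes, beside 533 of all 7621. It was 4 with a pseudocount of 0.1 or 0.01, beside 2670 and 3152 of the 7621. With a pseudocount of 10 it was 0, beside 12 of the 7621. The number higher, 0 on the total of all genes, became 1 (Pcsk2) with a pseudocount of 0.1 or 0.01, beside 936 and 1152 of 7621. It was also 1 without mitochondrial and ribosomal protein genes, beside 444 of 8148, and without the 20 most abundant genes, beside 430 of 8267. With the median set to 0 it was 1 as well, beside 446 of 7621. The median log2 difference of the 10 genes, -0.14, became -0.26, -0.056 and -0.28 with pseudocounts of 0.1, 10 and 0.01. The median of all genes, -0.05, moved with it, to -0.16, -0.0069 and -0.21. The median of the 10 genes was -0.089 with the median of all genes set to 0. For the 7 genes with an average of at least 1 per 10000 it was -0.22, beside 0.04 for all genes at that level. A pseudocount changes the size of a difference and cannot change its sign.

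Of the 96 other genes of the lists, 61 of 90 above 0 were lower in SHR with no minimum, beside 68.1% of all genes, and 10 of 18 with a minimum of 1 per 10000, beside 45.5% of all genes. The depth per neuron is unknown, so how far it limits low genes such as Pcsk1 cannot be stated.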
